A study of Gallus gallus with 144 samples.

Results

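Peaks of capped RNA 5′ ends were packed most densely, outside 4 excluded regions, in 33 windows of 20000 bp, which together held 1550 of the 153662 peaks of the study (1.01%). Each sequence was divided into windows from its first base, and a window was taken when at least 40 peaks had their representative position in it. Windows were left out on the mitochondrion, on chromosome 16 (the sequence with the BF2 promoter), around MYH1F in the fast myosin cluster of chromosome 18 and in the stretch of chromosome 7 that carries the PLEKHA3 promoter. Those regions held 14 further windows with 40 or more peaks. Of the 43058 windows with a peak that remained, 0.0766% reached the minimum. The windows were thus chosen by the number of peaks, so their density is a description and supports nothing else.

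The peaks came from CAGE, which sequences capped 5′ ends of RNA, in 144 chicken libraries. There were 12 fast-growing and 12 slow-growing birds, and each bird gave brain, breast, heart, kidney, leg and liver. This made 12 groups of 12 libraries. The measurement was 1 peak list over all libraries (GRCg6a coordinates), without any per-library value, so no window could be assigned to a tissue or a growth type, and depth and peak height are unknown. Fast-growing and slow-growing birds were therefore not compared here. Some peaks carried the authors' promoter label with a gene name, either a symbol or an Ensembl identifier.

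A cap marks the first base of an RNA polymerase II transcript, and most vertebrate promoters give 1 or a few neighbouring groups of start sites. CAGE signal within the exons of heavily transcribed genes, on the strand of the gene, is a known feature of the assay and has been called exon painting. Chicken chromosomes range from large macrochromosomes to small, gene-dense microchromosomes, and microchromosomes also carry satellite DNA made of short tandem repeats, among it the CNM repeat.

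The dense windows were spread over 18 chromosomes and 1 unplaced sequence. They formed 31 separate stretches, since 2 pairs of windows were adjacent, on chromosomes 1 and 33. Peaks per window ran from 40 to 72, with a median of 45, and neighbouring peaks on a window's main strand, the strand with more peaks, lay a median of 47 bp apart. Chromosome 33 held 6 of the windows, 2.1% of its 286 windows with a peak, and chromosome 31 held 2 of 183 (1.09%). Chromosome 1 held 5 of 8024 (0.0623%) and chromosome 2 held 1 of 6042 (0.0166%). The 2 highest shares were thus on the small chromosomes 33 and 31, from few windows.

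At the edge of the rule, 4 windows had exactly 40 peaks, on chromosomes 8, 15, 27 and 33. Another 4 had 39 and were not taken. Among these, a window on chromosome 2 from 149120001 had all 39 of its peaks on the minus strand and no label. Of the 5 windows with 38 peaks, 1 included a promoter of DES, which encodes the intermediate filament protein of muscle, and 1 that of ACADL.

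**Figure D1:**
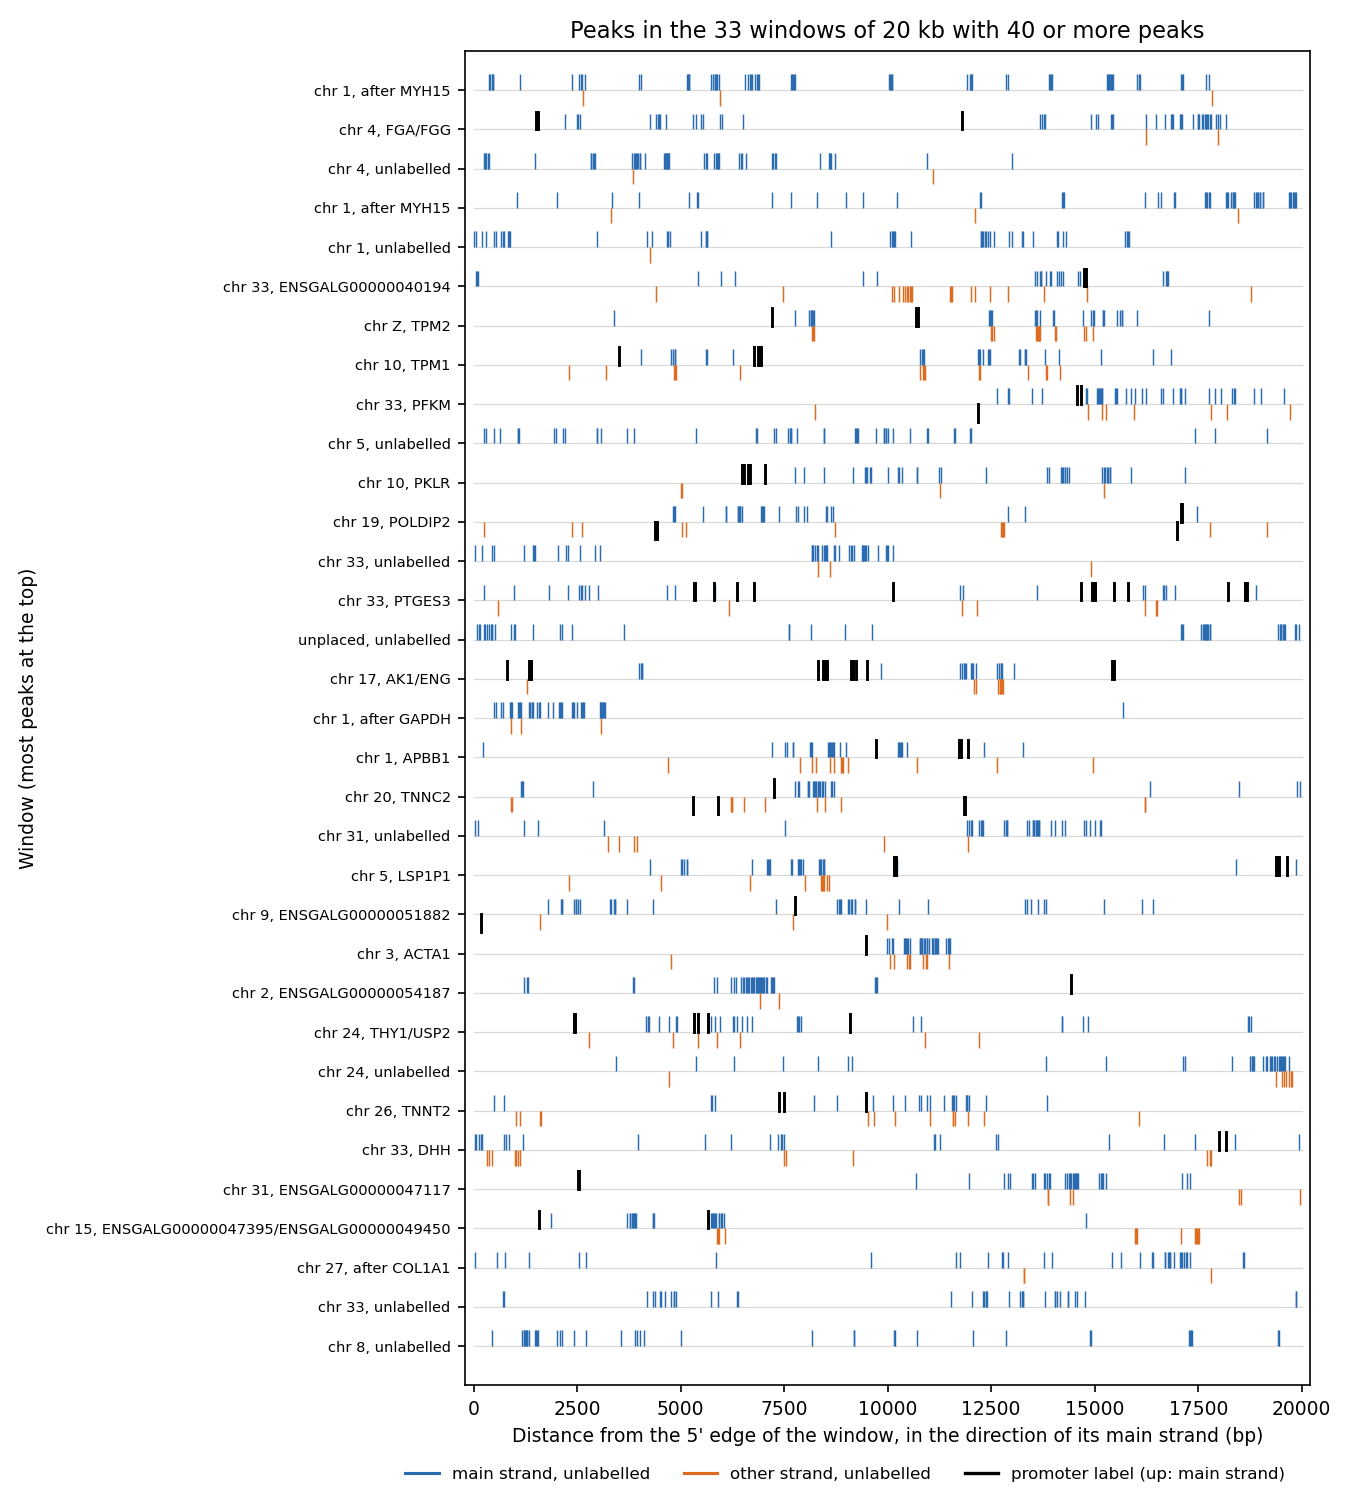
Position of every peak (1 tick each) in the 33 dense windows, 1 row a window, ordered by number of peaks; x is the distance in bp from the 5′ edge in the direction of the main strand. Blue ticks point up on the main strand, orange ticks point down on the other strand and black ticks are promoter-labelled peaks. The 13 rows without a label have from 81% (chromosome 24) to 100% of their ticks in blue.

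Peaks of a dense window lay mostly on 1 strand. The main strand held 1307 of 1550 peaks (84.3%, 95% Wilson interval 82.4 to 86), against 26053 of 35154 (74.1%, interval 73.7 to 74.6) in the 2492 other windows with 10 to 39 peaks. A main-strand share falls with the number of peaks by its construction, so pairs were counted too. The share of pairs of peaks on the same strand had a median of 74.1% in dense windows (range 50.2 to 100) and 57.6% in windows with 10 to 39 peaks (range 44.4 to 100). The ranges overlapped almost completely. In 15 of 33 dense windows 90% or more of the peaks lay on 1 strand (45.5%, interval 29.8 to 62). Among windows with 10 to 39 peaks the share was 21.9%, and among those with 20 to 39 it was 22%. With a minimum of 30 peaks, 26 of 91 windows were one-sided in this way (28.6%), against 22% of the windows with 10 to 29 peaks. The main strand was plus in 15 dense windows and minus in 18. Intervals cover counting of windows or peaks only, and neighbouring peaks are not independent.

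**Figure D2:**
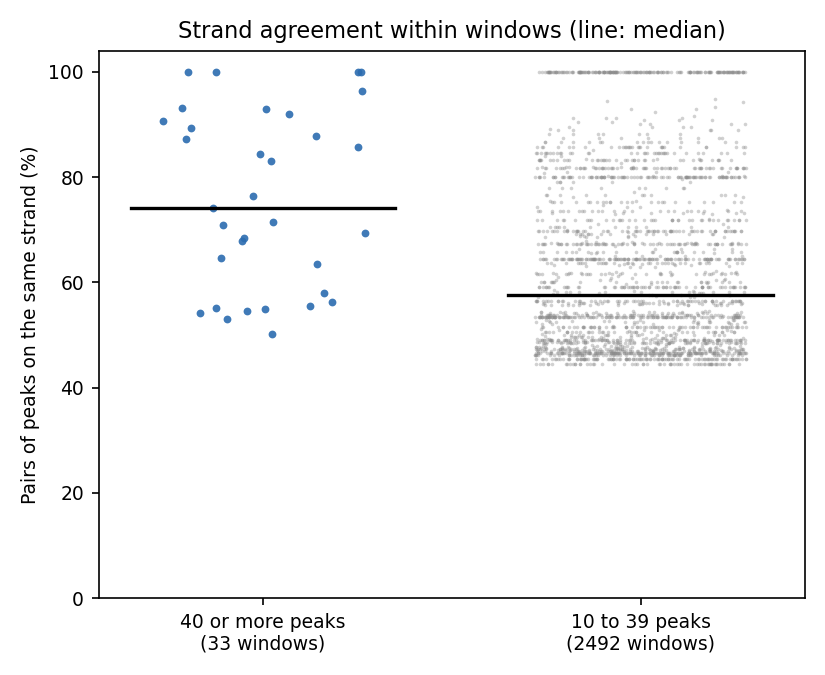
Share of all pairs of peaks of a window that lie on the same strand (y, percent) in the 33 dense windows (left) and in the other windows with 10 to 39 peaks (right); each point is a window and lines are medians. The medians are 74.1% and 57.6%, and both groups reach 100%.

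Dense windows without a labelled promoter were the more one-sided. The 13 windows without a label had 599 main-strand and 32 other-strand peaks, with a median main-strand share of 95.8% (range 81 to 100). The 20 windows with a label had 708 and 211, with a median of 77.3% (range 57.7 to 96.5). One-sided windows, at 90% or more, numbered 11 of the 13 and 4 of the 20. The same split was not made for windows with fewer peaks, so it is not known to be particular to dense windows. Unlabelled windows made up 39.4% of the dense windows (interval 24.7 to 56.3). They made up 21.8% of windows with 10 to 39 peaks and 23% of those with 20 to 39. With windows shifted by 10000 bp the share was 8 of 28 (28.6%), against 21.2%. A label was carried by 101 of the 1550 peaks (6.52%, interval 5.39 to 7.86), against 17.7% of peaks (interval 16.8 to 18.5) in windows with 20 to 39 peaks and 16.4% of all other peaks. The base of this share is the peak count that chose the windows, so a low share follows in part from the rule. The 33 dense windows held 101 promoter peaks, and the 305 windows with 20 to 39 peaks held 1355. The labels named 37 genes, 24 by a symbol or microRNA name and 13 by an Ensembl identifier, and 30 of them lay on the main strand.

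Peaks of 1 bp were rare in dense windows. Of unlabelled peaks, 71 of 1449 were 1 bp wide (4.9%, interval 3.9 to 6.14), against 9.4% in windows with 20 to 39 peaks, 15.6% with 10 to 19 and 27.7% over all other unlabelled peaks. The share was lower at each step of density, so the dense windows lay at the end of a trend. Of promoter peaks, 8 of 101 in dense windows were 1 bp wide (7.92%, interval 4.07 to 14.9), against 5.66% of all other promoter peaks. By density the share of promoter peaks was 19% at 1 peak a window, 7.1% at 2 to 4, 5.15% at 5 to 9, 5.17% at 10 to 19 and 5.83% at 20 to 39. The median width was 10 bp in dense windows and also in windows with 20 to 39 peaks, against 7 bp over all other peaks. Peaks over 100 bp numbered 4 in dense windows (0.258%, interval 0.1 to 0.662), against 0.705% in windows with 20 to 39 peaks and 0.36% of all other peaks. On the other strand of dense windows 24 of 243 peaks were 1 bp wide (9.88%), against 55 of 1307 (4.21%) on the main strand.

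**Figure D3:**
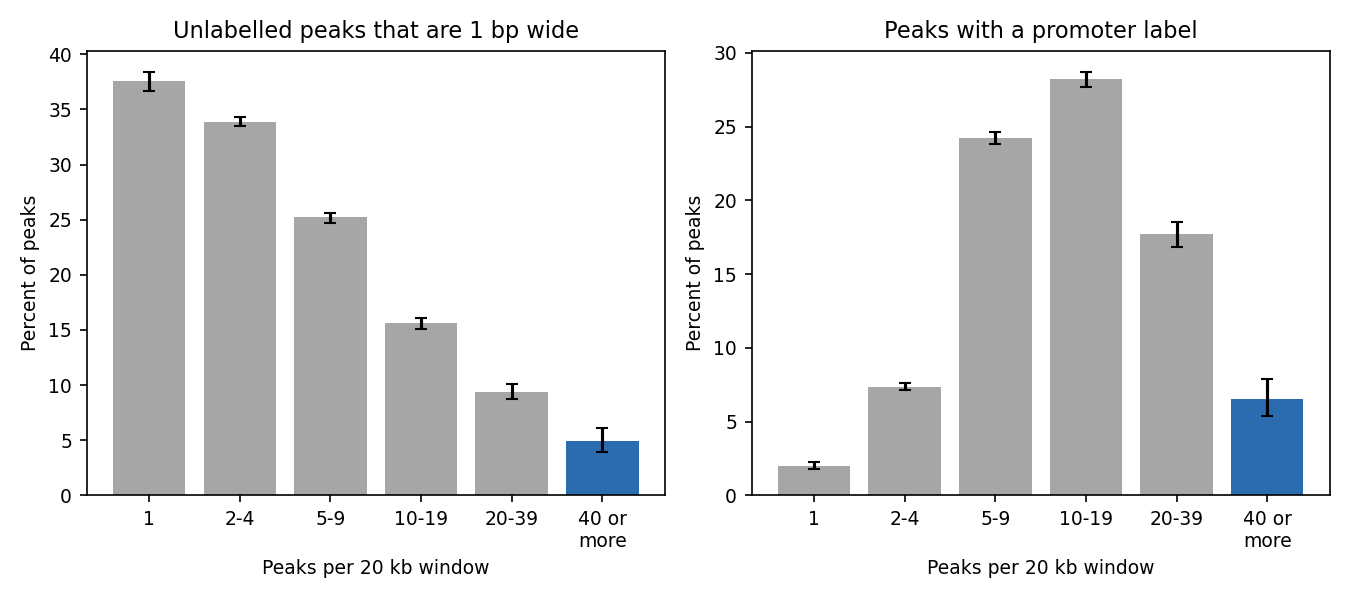
Percent of unlabelled peaks that are 1 bp wide (left) and percent of peaks with a promoter label (right), by number of peaks in the 20000 bp window (x); bars are shares and lines 95% Wilson intervals. Single-base peaks decline to 4.9% in dense windows (blue), while labels are most frequent at 10 to 19 peaks a window (28.2%) and stand at 6.52% in dense windows. The label share is taken over the peak count that chose the windows, so its low value there follows in part from the rule.

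Leaving out the myosin cluster and the stretch near PLEKHA3 did not remove muscle genes. The promoters of TPM1, TPM2, TNNT2, TNNC2 and ACTA1 lay in 5 dense windows, and 2 more dense windows lay downstream of MYH15. TPM1 and TPM2 encode tropomyosins, which lie along the thin filament. TNNT2 encodes cardiac troponin T and TNNC2 fast skeletal troponin C, the calcium sensor of the filament. ACTA1 encodes skeletal alpha-actin, and MYH15 a myosin heavy chain of the chicken ventricle.

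The TPM2 window, on chromosome Z from 9200001 to 9220000, had 35 plus-strand and 17 minus-strand peaks. Its 4 promoter peaks ran from 9207201 to 9210747, and 30 unlabelled plus-strand peaks followed the first, the farthest 10556 bp away. The TPM1 window, on chromosome 10 from 4620001 to 4640000, had 34 minus-strand and 16 plus-strand peaks. Its 5 promoter peaks spread from 4633055 to 4636486, and 29 unlabelled peaks followed over 13336 bp. Both tropomyosin genes thus had promoter peaks spread over several kb, with most peaks of the window on the strand of the gene and many on the other.

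ACTA1 had the most compact window. On chromosome 3 from 40080001 to 40100000, 33 of 43 were minus-strand peaks, and all 33 fell within 2018 bp. The promoter peak was 1 bp wide, at 40090516, and the other 32 followed it at a median distance of 1402.5 bp. As many as 24 lay within 1000 bp. The 10 other-strand peaks lay on the plus strand.

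TNNT2 lay on chromosome 26 (window 800001 to 820000), where 28 of 42 peaks were on the plus strand. Its 3 promoter peaks spanned 807385 to 809503, and 20 unlabelled peaks followed within 6456 bp. TNNI1, which encodes slow skeletal troponin I, had its labelled promoter 8553 bp before this window on the same strand. TNNC2 shared a window on chromosome 20 (10500001 to 10520000) with SNX21, UBE2C and ENSGALG00000054914, which were labelled on the other strand. Of 45 peaks, 29 lay on the strand of TNNC2. Its promoter peak, at 10512734 to 10512737, was followed by 24 unlabelled peaks at a median distance of 1066 bp.

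The MYH15 stretch had the longest run of main-strand peaks and the window with the most peaks. The window on chromosome 1 from 88760001 to 88780000 had 69 minus-strand and 3 plus-strand peaks, and its neighbour from 88780001 to 88800000 had 51 and 3. Neither held a label. The only MYH15 promoter peak, 1 bp wide at 88804649, lay 4649 bp before the second window on the minus strand. From 88762251 to 88800375, over 38125 bp, lay 123 minus-strand peaks, with a gap over 2000 bp among them. The 92 of these from 88772244 on formed an unbroken run over 28132 bp, with no gap over 2000 bp. Few minus-strand peaks of the stretch were near the promoter: 7 unlabelled peaks lay within 5000 bp of it, 25 within 20000 bp and 127 within 45000 bp. In the gene order of GRCg7b, HHLA2 and MYH15 are adjacent with no gene between them.

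One more window lay among muscle genes without a labelled one. On chromosome 5 from 14280001 to 14300000, 35 of 45 peaks were on the minus strand, the 7 promoter peaks were all labelled LSP1P1, and 3 unlabelled peaks followed the first of them. Most of the main-strand peaks lay before the LSP1P1 promoter. In GRCg7b the flanking labelled genes TNNT3 and CTSD, of fast troponin T and a lysosomal protease, enclose 6 genes that include TNNI2, of fast troponin I. No label tied these peaks to TNNI2.

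Glycolysis genes lay in or just before 3 dense windows. GAPDH, which oxidises glyceraldehyde-3-phosphate, had a 710 bp wide promoter that ended just before a window on chromosome 1 (77620001 to 77640000). Of the 45 peaks in that window 42 were on the plus strand of GAPDH, none was labelled, and 41 unlabelled plus-strand peaks lay within 5000 bp of the promoter. The 42 window peaks on that strand lay at a median of 2418.5 bp from it, and the farthest at 16240 bp. PKLR, a pyruvate kinase gene, lay in a window on chromosome 10 (2040001 to 2060000) with 44 minus-strand and 4 plus-strand peaks. In GRCg7b it lies with GRAMD2, PARP6 and CELF6 between SENP8 and HEXA. The symbol is that of the label, and which tissue form of the enzyme the gene encodes was not examined. PKLR had 8 promoter peaks, from 2052967 to 2053524, and 36 unlabelled peaks after them, at a median of 6631 bp. PFKM, the muscle phosphofructokinase gene, lay on chromosome 33 (7260001 to 7280000), with 40 of 49 peaks on its strand. Its promoter was followed by 33 unlabelled peaks within 4993 bp, and SENP1 was labelled on the opposite strand. Outside glycolysis, AK1, which encodes an adenylate kinase and is in none of the gene lists, had 9 promoter peaks on chromosome 17 between 5248315 and 5249511 and 17 unlabelled peaks after them. It shared its window (5240001 to 5260000, 37 of 46 peaks on the plus strand) with ENG, an endothelial receptor, ST6GALNAC4 and ENSGALG00000005298, all labelled on the plus strand.

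Fibrinogen is the clot-forming plasma protein that the liver secretes, and its window was the most one-sided of the 20 with a label. This window on chromosome 4 (20320001 to 20340000) had 55 minus-strand and 2 plus-strand peaks. FGG, of the gamma chain, had 2 promoter peaks ending at 20338490 with 17 unlabelled peaks after them. FGA, of the alpha chain, had a 228 bp wide promoter, from 20328110 to 20328337, with 35 after it at a median of 5298 bp. These are counts up to the next labelled promoter or the window edge. FGB, of the beta chain, is a neighbour in GRCg7b but had no label here. The peaks after FGA were counted on the minus strand, that of FGA. The strand of FGB in GRCg7b was not used, so no peak was tied to FGB.

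Albumin and apolipoprotein neighbourhoods appeared without labels. A window on chromosome 4 (50840001 to 50860000) had 54 plus-strand and 2 minus-strand peaks. From 50835663 to 50853006, over 17344 bp, lay 75 plus-strand peaks, with gaps over 2000 bp near the end. The nearest labelled promoter upstream on that strand was 805943 bp away. In GRCg7b the flanking labelled genes ANKRD17 and EPHA5 enclose 8 genes, among them ALB and AFP, of albumin and alpha-fetoprotein. On chromosome 24 (5140001 to 5160000), 34 of 42 peaks were on the minus strand and 22 fell within 1000 bp. APOC3 was labelled 1011 bp past one edge, and the only protein-coding gene between it and SIK3 in GRCg7b is APOA1, of the main protein of high-density lipoprotein. The strand of ALB and APOA1 was not taken from that table, so neither gene was tied to the peaks.

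Collagen gave 1 window. COL1A1, of the main collagen of bone, tendon and skin, had a 292 bp promoter at 5538092 to 5538383 of chromosome 27, just before a window (5540001 to 5560000) with 37 plus-strand and 3 minus-strand peaks. The peaks gathered far from the promoter: 10 unlabelled peaks lay within 5000 bp and 39 within 20000 bp, and those in the window had a median distance of 17909 bp. Unlabelled peaks after the GAPDH promoter thus lay nearly all close to it, and those after the MYH15 and COL1A1 promoters mostly far away. In GRCg7b, SGCA, PPP1R19B and SAMD14 are among the genes between COL1A1 and ITGA3, and IFFO1 lies between GAPDH and NOP2. Gene lengths and ends were not used, so these peaks cannot be assigned to COL1A1 or GAPDH alone.

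Other labelled windows had more labels, more other-strand peaks or both. On chromosome 33 (6880001 to 6900000) 17 of 47 peaks were promoter peaks. They named PTGES3, a co-chaperone of HSP90 (6 peaks), and 3 Ensembl genes on the same plus strand, which held 40 peaks. On chromosome 24 (4200001 to 4220000) THY1, a surface glycoprotein of neurons and thymocytes, gga-mir-1466 and USP2, a deubiquitinase, followed each other on the plus strand, with 7, 13 and 9 unlabelled peaks after them. APBB1, which encodes a partner of the amyloid precursor protein, had 6 promoter peaks on chromosome 1 (window 197400001 to 197420000, 32 of 45 peaks on the minus strand), with 8 unlabelled peaks after them. Most minus-strand peaks of that window lay before its promoter, and HPX, of the haem-binding plasma protein hemopexin, is the other gene between SMPD1 and TRIM3 in GRCg7b. No label tied these peaks to HPX.

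Peaks lay on both strands in windows of chromosomes 19 and 33. The window of POLDIP2, TMEM199 and ENSGALG00000003595 on chromosome 19 (5780001 to 5800000) had 31 minus-strand and 16 plus-strand peaks. POLDIP2 was labelled on the minus strand and the others on the plus strand, and 1 unlabelled peak followed the POLDIP2 promoter. VTN, of the plasma protein vitronectin, and SARM1 are among 8 coding genes between the flanking labelled genes in GRCg7b. No label tied these peaks to VTN. SLC46A1 was labelled 7747 bp before this window on the minus strand. The window of DHH, desert hedgehog, on chromosome 33 (7120001 to 7140000) had 29 and 13 peaks, with 2 unlabelled peaks after the DHH promoter. TUBA1A, of alpha-tubulin, was labelled 2615 bp before it on the same strand. The least one-sided window of all was on chromosome 33 (6240001 to 6260000), with 30 plus-strand and 22 minus-strand peaks around ENSGALG00000040194.

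The remaining 4 labelled windows carried Ensembl identifiers only. On chromosome 31 (4920001 to 4940000) ENSGALG00000047117 had 32 unlabelled peaks after its promoter, at a median of 11870 bp, and 34 of 41 peaks lay on its strand. A window on chromosome 9 (15140001 to 15160000) had 40 minus-strand and 4 plus-strand peaks. There ENSGALG00000051882 had 22 unlabelled peaks after its promoter, and ENSGALG00000007536 was labelled on the plus strand. One on chromosome 15 (8200001 to 8220000) had 27 and 13 peaks, with 13 after ENSGALG00000047395 and 12 after ENSGALG00000049450. In GRCg7b, DGCR2 and VPS29L enclose 2 coding genes, CA15L and IGLL1, the second an immunoglobulin lambda gene. On chromosome 2 (131160001 to 131180000) the 1 labelled peak, of ENSGALG00000054187, was the last of 40 plus-strand peaks. It had none after it, and 28 of the 40 fell within 1000 bp, the tightest group in any dense window. ENSGALG00000048064 was labelled 1372 bp before this window on the same strand.

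Of the 13 unlabelled windows, 9 had no labelled main-strand promoter within 25000 bp upstream: the albumin and APOA1 neighbourhoods above and 7 more. The 7 had from 0 to 6 peaks on the other strand. All 49 peaks of a window on chromosome 5 (17060001 to 17080000), all 47 of the unplaced sequence (1 to 20000), all 40 on chromosome 8 (40001 to 60000) and all 40 on chromosome 33 (3540001 to 3560000) lay on 1 strand. Every peak on 1 strand was seen in 4 of 33 dense windows (12.1%, interval 4.82 to 27.3). That interval covers the 7.21% of windows with 20 to 39 peaks and the 7.74% of those with 10 to 39. A window on chromosome 1 (90740001 to 90760000) had 53 plus-strand and 1 minus-strand peaks. The chromosome 33 window beside the other (3520001 to 3540000) had 44 minus-strand and 3 plus-strand peaks, and one on chromosome 31 (200001 to 220000) had 39 plus-strand and 6 minus-strand peaks.

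Gene order said little about these windows. FTH1 and LPXN enclose 16 coding genes in GRCg7b around the window on chromosome 5. For the chromosome 33 pair the flanking genes FKBP11 and DCTN2 enclose 196 coding genes, and no neighbour is named. No pair of flanking labelled genes was found for the unplaced sequence or the windows near the starts of chromosomes 8 and 31.

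In 4 of these windows 41 bp was the leading spacing between peaks. Distances of 20 to 300 bp between main-strand peaks of a window were compared with multiples of each length from 25 to 80 bp, with a tolerance of 1 bp, and divided by the share that evenly spread distances would give. The leading length was 41 bp in both adjacent windows of chromosome 33, in the window near the start of chromosome 31 and in that on chromosome 1 from 90740001. In the second chromosome 33 window 22 of 61 distances (36.1%) lay on a multiple of 41 bp, in the first 32 of 118 (27.1%), on chromosome 31 28 of 96 (29.2%) and on chromosome 1 24 of 106 (22.6%). An even spread gives 7.32%. The pooled share was 106 of 381 (27.8%) in these 4 windows and 183 of 2400 (7.62%) in the other 29 dense windows. It was 2253 of 28736 (7.84%) in windows with 10 to 39 peaks. The 4 windows were grouped by this length, so a higher share in them follows in part from the grouping. Their ratios to an even spread were 3.71 and 4.93 on chromosome 33, 3.99 on chromosome 31 and 3.09 on chromosome 1. The chromosome 1 ratio was below those of the DHH window (3.54, at 69 bp) and the PTGES3 window (3.44, at 66 bp). It was also below those of the POLDIP2 window (3.24, at 50 bp) and the chromosome 8 window (3.89, at 42 bp). The 2 chromosome 33 windows are adjacent and so form 1 stretch. In all 4 windows the distance of exactly 41 bp occurred, 13 times in the first chromosome 33 window alone.

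Near-equal lengths led elsewhere. The leading length was 42 bp on chromosome 8 (20 of 72 distances, 27.8%), on chromosome 9 (13 of 64, 20.3%), on the unplaced sequence (22 of 116, 19%) and at ACTA1 (20 of 159, 12.6%), where an even spread gives 7.14%. In the remaining 25 windows other lengths led, with ratios from 1.48 in the albumin neighbourhood to 3.54, at 69 bp, in the DHH window, which had 26 distances. Every window thus had some length above an even spread, and few distances could give a high ratio. The measure, and the 4 windows named by it, were chosen after the positions were seen, so these shares are descriptions with no test. Repeat annotation was not used here.

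**Figure D4:**
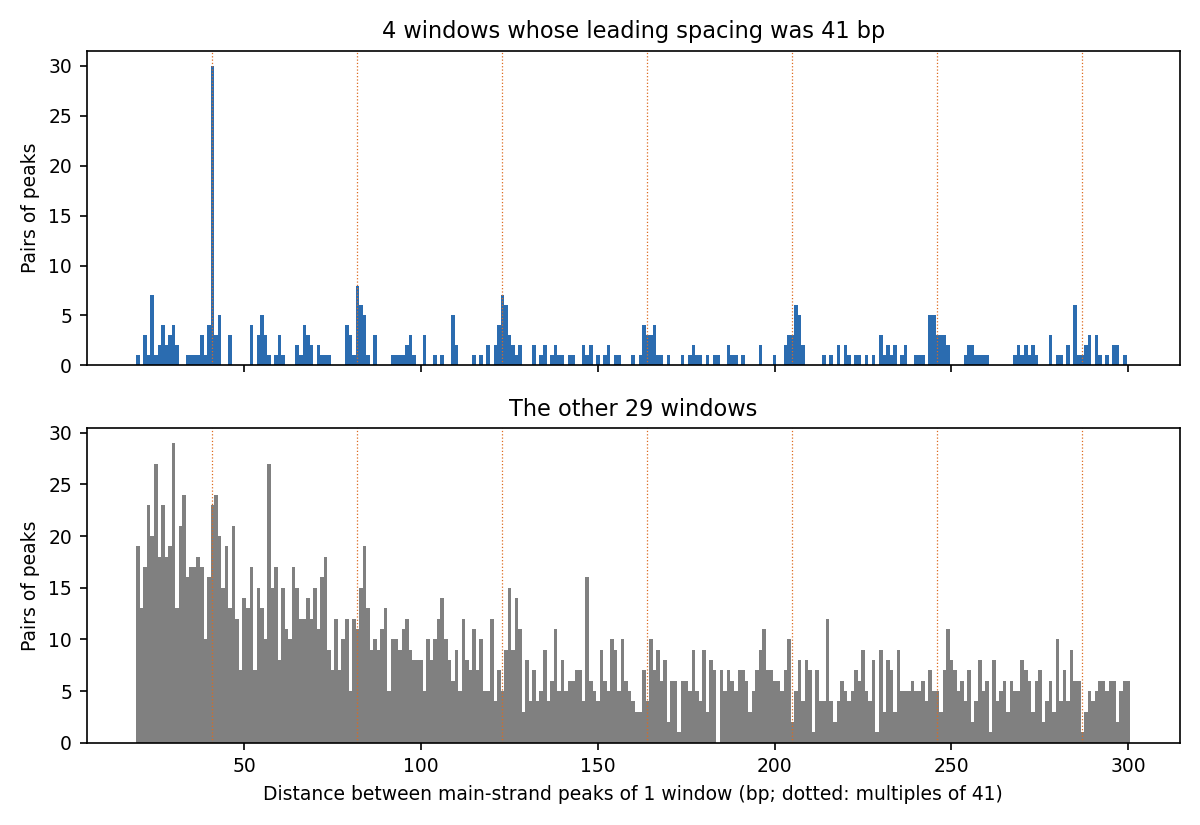
Number of pairs of main-strand peaks of the same window (y) at each distance from 20 to 300 bp (x), pooled over the 4 dense windows whose leading spacing was 41 bp (top) and over the other 29 (bottom); dotted lines mark multiples of 41 bp. The top panel has its highest bar at 41 bp and groups near the next multiples, and the bottom panel declines without them. The windows were grouped by that length, so this difference follows in part from the grouping.

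Adjoining windows held fewer peaks, as follows in part from the rule. Their pooled main-strand share was higher before the dense windows than after them. Adjoining windows before the dense ones, in the direction of the main strand, had a median of 6.5 peaks (range 1 to 26, 30 windows), and those after them a median of 8 (range 0 to 36, 31 windows). Before the dense window 195 of 268 peaks lay on its main strand (72.8%, interval 67.1 to 77.7). After it 171 of 320 did (53.4%, interval 48 to 58.8). The window after the fibrinogen window alone gave 36 of the 320, with only 4 of them on the main strand. A few windows also weighed on the share before. Main-strand peaks were 22 of 23 before the albumin window, 20 of 20 before TNNT2 and 20 of 26 before that near the start of chromosome 31. Others went the other way, as before the fibrinogen window (2 of 8). Both pooled shares thus depend on a few windows. The promoters of GAPDH, COL1A1 and MYH15 were among the peaks before.

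Over all 10437 labelled genes, 58 (0.556%) had a promoter inside a dense window or up to 20000 bp upstream of one on its main strand. Skeletal muscle contractile and calcium genes had 5 of 31 labelled members there: ACTA1, TNNC2, TNNI1, TPM1 and TPM2. Glycolysis and lactate genes had 3 of 17, which were GAPDH, PFKM and PKLR. Heart muscle genes had MYH15 and TNNT2 (2 of 20) and secreted liver proteins FGA and FGG (2 of 20). Collagen and extracellular matrix had COL1A1 (1 of 23) and brain genes TUBA1A (1 of 31). None was found among 32 genes of ribosomal proteins and translation factors, 21 of liver metabolic enzymes, 17 of homeobox clusters, 17 of cytoskeleton and housekeeping, 15 of kidney, 13 of the respiratory chain and ATP synthase, or 6 of blood and globin. With 0.556% of all labelled genes there, lists of this size would mostly have none, so their absence shows no depletion. The lists were chosen with earlier results of these data known, and no set test was made. Genes without a label could not be counted, and the myosin cluster was left out by the rule.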

How the data were processed

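Per the labels' protocols, the authors made CAGE libraries from 5 µg of total RNA with molecular identifiers. Per the submitters' processing notes the genome build was GRCg6a, and STAR 2.7.9a and UMI-tools 1.1.4 were among the tools. How peaks were called and promoters labelled was not given in the sources used here. 1 deposited list covers the whole series and has no header. Its peak positions, strands, widths and labels were used, and its 2 score-like columns were constant. Starts are printed 1-based.

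Peaks were counted in 20000 bp windows by representative position. The members and gene lists were chosen with earlier results of these data known. No test was run, because the list has no replicates and the count chose the windows. Shares have 95% Wilson intervals. Runs went from the first to the last main-strand peak of a window and were extended outward over gaps up to 2000 bp. Gaps inside a window were not limited, so a run could bridge a larger gap there. The run of 92 peaks at MYH15 had no gap over 2000 bp. Named genes were those labelled in, or nearest upstream of, the 20 densest windows, those in windows with every peak on 1 strand, list members at a dense window, and windows with 39 or 40 peaks. Some neighbouring genes and 1 window at the edge of the rule are not reported here. The other genes and windows named, so that every window is described, were chosen after their values were seen. Chromosome names were set by hand. Neighbours came from the RefSeq table of GRCg7b, names and order only. The spacing, flanking-window, density-class and following-peak measures were also chosen after the data were seen. The code for counting and spacing was tested on simulated data with planted counts and a planted spacing of 41 bp. Spacing was not simulated without a planted length, so how often some length leads by chance was not estimated. Python 3.11.15, numpy 2.4.6, pandas 2.3.3, scipy 1.17.1 and matplotlib 3.10.9 were used.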

Additional observations from a re-analysis of the deposited data

How the results depend on the processing

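Of 68 values recomputed under other settings, 48 stayed within 1.5 times (counts), the main interval (shares of peaks) or the spread over dense windows (medians), and 20 moved. The 48 include values set beside windows with 20 to 39 peaks, where the dense value could not move. The limit for medians was wide. The median distance between neighbouring peaks rose from 47 to 98 bp with merging and still counted as unchanged. So did the same-strand pair share, 63% with 30 or more peaks (against 57.5%), where the main value was 74.1%. Both contrasts between dense and other windows, one-sided (90% or more on 1 strand) and without a label, were smaller with a lower minimum or shifted windows. With 30 or more peaks 91 windows were taken, and 78.2% of their peaks lay on the main strand, against 74.2% in the other windows with at least 10 peaks. Of the 91, 26 were one-sided (28.6%, against 22%) and 24 had no label (26.4%, against 21.9%), and 11.3% of peaks were labelled. With windows shifted by 10000 bp there were 28 windows, with 79.1% on the main strand (against 74.2%), 10 one-sided (35.7%, against 20.9%) and 8 without a label (28.6%, against 21.2%). With 50 or more peaks there were 8 windows, 5 one-sided (62.5%, against 22.1%), 4 without a label (50%, against 22%) and 3.36% of peaks labelled. Windows of 10000 bp with 20 or more peaks numbered 153, with 65 one-sided (42.5%, against 33.2%), 71 without a label (46.4%, against 27.1%) and 9.95% of peaks labelled. With same-strand peaks up to 20 bp apart merged there were 11 windows, with 81.7% on the main strand (against 73.6%), 5 one-sided (45.5%, against 20%) and 4 without a label (36.4%, against 23%). At 95% or more on 1 strand, 9 of 33 dense windows counted as one-sided (27.3%, interval 15.1 to 44.2). The share was 8.59% in windows with 10 to 39 peaks and 14.1% in those with 20 to 39. Windows with fewer than 20 peaks reach 95% only with every peak on 1 strand. Apart from the 95% limit, these settings change which windows are members. The share of 1 bp peaks could not be computed without those peaks. No paired analysis was possible because the list has no value per library. The list gives no depth, so a missing peak or label shows no absence of transcription.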
